A study of Mus musculus with 4 samples.

Results

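The RNA of 6 genes of secreted proteins was followed in differentiating C2C12 cells: Chi3l1, Ptgds and Fgf21, whose RNA was at a lower level after Mef2a silencing, and Sod3, Enpp2 and Spon2, whose RNA was at a higher level. They were chosen by symbol, as secreted products that moved in opposite directions in these libraries, and they make up 6 of the 13824 gene symbols and 12 of the 36231 transcripts listed. C2C12 is a mouse myoblast line that forms myotubes when serum is lowered. In 2 libraries (siMEF2A replicates 1 and 2) the cells had received siRNA against Mef2a, and in 2 libraries (scrambled replicates 1 and 2) a scrambled siRNA. Every culture received 30 nM siRNA with Lipofectamine and then spent 48 h in differentiation medium (horse serum in place of fetal serum). The labels do not say whether the libraries of a group came from separate cultures, so the spread between them may be technical.

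Secreted proteins carry signals and enzymes from muscle cells to their surroundings. MEF2A is a transcription factor that binds AT-rich sites in muscle genes and acts with the myogenic factors during differentiation. Of the proteins that muscle cells release, some act as hormones (FGF21, which signals through FGF receptors together with the co-receptor beta-klotho), some make lipid mediators (the prostaglandin D synthase of Ptgds and autotaxin, the product of Enpp2, which makes lysophosphatidic acid), and some act in the matrix (the extracellular superoxide dismutase of Sod3 and mindin, the product of Spon2). Chi3l1 encodes a chitinase-like glycoprotein that binds chitin without cleaving it.

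Promoter sequence from RefSeq (GRCm38.p6, the build mm10 of the deposited files) was at hand for 3 of the 6 genes, and these were the 3 that were lower in siMEF2A. The 250 bases before each RefSeq start are shown so that the motifs searched can be seen in place. They are chr1:134181906-134182155 on the plus strand for Chi3l1, chr2:25469750-25469999 on the minus strand for Ptgds and chr7:45615491-45615740 on the minus strand for Fgf21. Each runs 5′ to 3′ towards the start site, with motif matches in capitals.
Chi3l1: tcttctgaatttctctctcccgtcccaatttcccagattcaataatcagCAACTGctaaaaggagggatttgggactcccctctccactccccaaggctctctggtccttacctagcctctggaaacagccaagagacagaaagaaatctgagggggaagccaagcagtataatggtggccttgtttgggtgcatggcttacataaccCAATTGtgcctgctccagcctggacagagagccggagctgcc
Ptgds: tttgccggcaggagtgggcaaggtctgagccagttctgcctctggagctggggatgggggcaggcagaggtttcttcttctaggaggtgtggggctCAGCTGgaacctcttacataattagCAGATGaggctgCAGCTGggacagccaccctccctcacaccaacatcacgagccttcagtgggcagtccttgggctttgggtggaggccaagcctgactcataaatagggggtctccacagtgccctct
Fgf21: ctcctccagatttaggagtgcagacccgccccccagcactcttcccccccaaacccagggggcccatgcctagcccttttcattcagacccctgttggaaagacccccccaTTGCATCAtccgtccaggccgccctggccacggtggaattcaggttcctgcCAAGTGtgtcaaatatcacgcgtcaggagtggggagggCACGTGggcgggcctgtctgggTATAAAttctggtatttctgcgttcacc
The motifs were the MEF2 consensus, the E-box CANNTG, which myogenic bHLH factors and their relatives bind, the TATA box TATAAA, and TGATGNAA, the element that ATF4 binds with C/EBP factors. Both strands were searched, and no 2 matches overlapped in these 3 windows. The E-box occurred 2 times before Chi3l1, 3 times before Ptgds and 2 times before Fgf21, and 66.2% of 32851 windows of this length held at least 1. Fgf21 alone of the 3 held TATAAA, 28 bases before its start, and the TGATGNAA element, as TTGCATCA on the printed strand with its first base 139 bases before the start. Of all windows, 12.4% held TATAAA and 3.45% held TGATGNAA. The MEF2 consensus was found in 2.92% of all windows and in 0 of these 3, which says only that its letters are not in these stretches. The windows do not lie just before the start of all RNA measured. The listed Chi3l1 transcript starts at 134189126, downstream of its window. The Ptgds transcript ENSMUST00000114251 starts at 25470046, upstream of its window.

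The knockdown left 46.5% of Mef2a. Its RNA was at 12.7 and 14.3 FPKM in siMEF2A, against 25.8 and 32.2 FPKM in scrambled (log2 difference -1.05, SE 0.15, limma adjusted p = 2.83e-05). FPKM divide the fragments of a transcript by its length and by the size of the library, so levels can be compared between genes. Sequencing depth relative to scrambled replicate 1, read from low values, was 0.847 and 0.848 in siMEF2A and 1.05 in scrambled replicate 2, and absolute depth was not given. Of 8 muscle markers 7 were listed, and Acta1 was not analysed here. The 7 listed, Myod1, Myf5, Myog, Des, Myh3, Ckm and Tnnt3, were all detected, as the labelled cell line should show. Their summed level was 382 and 422 FPKM in siMEF2A, against 655 and 716 FPKM in scrambled, and 4 of the 7 were lower by the limma test. Their part in the differences below was not tested, and in bulk RNA fewer cells of a type and less RNA per cell cannot be told apart.

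In each of the 6 genes the 2 siMEF2A libraries lay on one side of the 2 scrambled libraries, as they did for 27.9% of the 11823 genes tested. The limma fit over all genes called 5 of the 6 at an adjusted p under 0.05, Chi3l1 and Ptgds lower and Sod3, Enpp2 and Spon2 higher, while Fgf21 was not called. The share called among all genes was 1.73%, with 0.406% higher and 1.32% lower, and the share whose groups did not overlap was 18.8% higher and 9.12% lower. Because the genes were picked on this very contrast, these counts and the differences below are a description and carry no test.

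**Figure D1:**
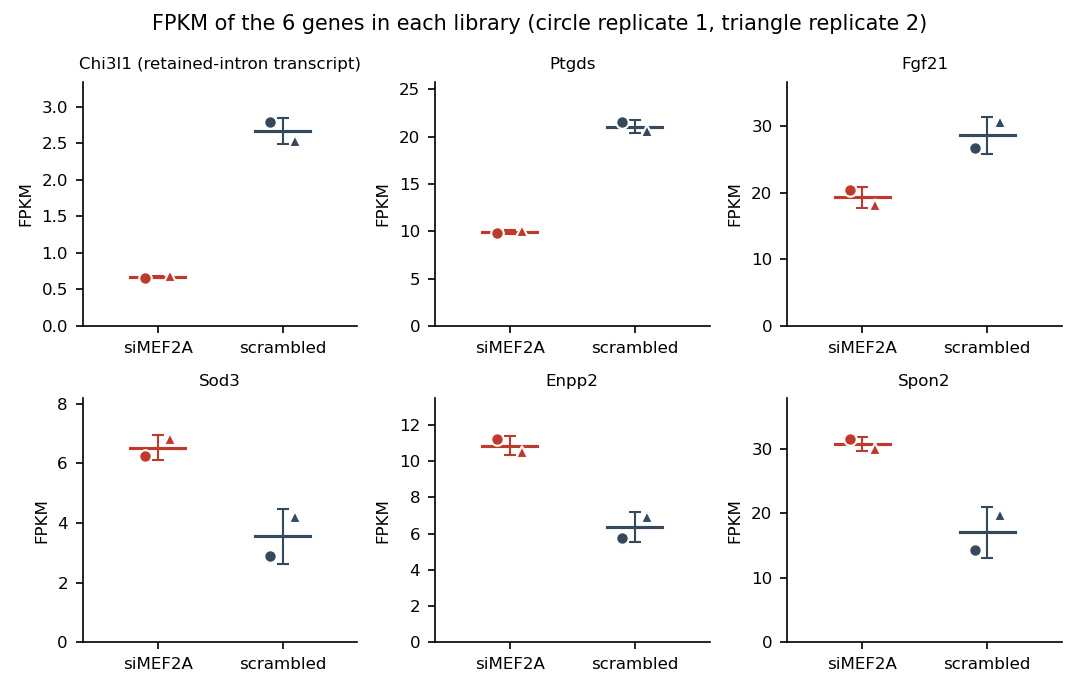
FPKM of each of the 6 genes, summed over its listed transcripts, in the siMEF2A libraries (red, left) and the scrambled libraries (dark, right). Circles are replicate 1, triangles replicate 2, horizontal lines the group means and bars the SD (n = 2). The groups do not overlap in any panel; Chi3l1 is at 0.655 and 0.679 FPKM in siMEF2A, and Spon2 at 31.5 and 30.0 FPKM.

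Chi3l1 had the largest relative difference of the 6. It was at 0.655 and 0.679 FPKM in siMEF2A, against 2.79 and 2.54 FPKM in scrambled. Both siMEF2A libraries were far below both scrambled libraries, and replicates of a group were close together. The means were 0.667 ± 0.0175 FPKM in siMEF2A and 2.66 ± 0.177 FPKM in scrambled (SD, n = 2 each), which is 25.0% of the scrambled level, or a difference of -1.14 in log2(FPKM + 1). At so low a level the added 1 shrinks the difference, and with 0.1 added in its place it was -1.85. The gene passed the minimum mean of 1 FPKM only through the scrambled libraries.

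The Chi3l1 value covers 1 transcript, and that transcript is annotated as a retained intron. The gene (ENSMUSG00000064246, named Chil1 in GENCODE M21) lies on chromosome 1 from 134182176 to 134190181, on the plus strand, and has 8 annotated transcripts, 5 of them protein-coding. The only one listed, ENSMUST00000134812, spans 134189126 to 134190027 at the 3′ end of the gene, with 2 exons, 735 bases and no coding sequence. Whether the coding transcripts moved with it was not analysed here. Such a case was rare, since 69 of 10601 protein-coding genes tested (0.651%) had no listed coding transcript.

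Ptgds was at 9.81 and 10.1 FPKM in siMEF2A, against 21.5 and 20.6 FPKM in scrambled. The replicates of each group differed by little and both siMEF2A libraries were well below both scrambled libraries. The means were 9.93 ± 0.179 FPKM in siMEF2A and 21.1 ± 0.680 FPKM in scrambled, 47.2% of the scrambled level and a log2 difference of -1.01. The gene (ENSMUSG00000015090, chromosome 2, 25466709 to 25470046, minus strand) had all 5 of its annotated transcripts listed, and it is also a lipocalin, able to carry small lipophilic molecules.

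Both of its abundant coding transcripts were lower in siMEF2A. ENSMUST00000114259, whose start is the RefSeq start used above, was at 3.16 and 3.88 FPKM in siMEF2A, against 8.36 and 7.69 FPKM in scrambled. ENSMUST00000114251, which starts farther upstream, was at 3.06 and 4.76 FPKM in siMEF2A, against 6.95 and 9.00 FPKM in scrambled. Their means were 43.9% and 49.0% of the scrambled level, so transcripts from both starts were at a lower level. The noncoding ENSMUST00000137417 was estimated at 2.88 and 8.77e-05 FPKM in siMEF2A, against 4.26 and 2.55 FPKM in scrambled. Its share of the Ptgds sum thus ran from 0.000872% to 29.3% within the siMEF2A group, and the split of Ptgds reads among transcripts was less stable than their sum. All 3 coding transcripts together stood at 6.22 and 9.11 FPKM in siMEF2A, against 15.5 and 16.9 FPKM in scrambled.

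Fgf21 was the most abundant of the 6 in scrambled cells and had the smallest relative difference. It was at 20.4 and 18.2 FPKM in siMEF2A, against 26.7 and 30.6 FPKM in scrambled. Both siMEF2A libraries were below both scrambled libraries, by more than replicates differed from each other. The means were 19.3 ± 1.53 FPKM in siMEF2A and 28.7 ± 2.76 FPKM in scrambled, 67.4% of the scrambled level and a log2 difference of -0.54. The gene (ENSMUSG00000030827, chromosome 7, 45613886 to 45615490, minus strand) has 1 annotated transcript, which is coding. It missed the threshold of the fit over all genes but met it under 4 of 13 alternative settings, which were a minimum mean of 5 FPKM, robust moderation, leaving out scrambled replicate 1 and the replicate number as a block.

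Sod3 was at 6.24 and 6.83 FPKM in siMEF2A, against 2.90 and 4.22 FPKM in scrambled. The siMEF2A libraries were alike, and scrambled replicate 2 lay between them and scrambled replicate 1. The means were 6.53 ± 0.419 FPKM in siMEF2A and 3.56 ± 0.928 FPKM in scrambled, 184% of the scrambled level and a log2 difference of 0.74. Between the scrambled libraries themselves the log2 difference was 0.42. The gene (ENSMUSG00000072941, chromosome 5, 52363791 to 52371418, plus strand) has 1 annotated transcript. Without scrambled replicate 1 the log2 difference was 0.53 and Sod3 was no longer called, nor was it under quantile normalization.

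Spon2 encodes an integrin-binding matrix protein of the spondin family and was the most abundant of the 6 in siMEF2A. It was at 31.5 and 30.0 FPKM in siMEF2A, against 14.3 and 19.8 FPKM in scrambled. The siMEF2A libraries were close together and above both scrambled libraries, which were spread more widely. The means were 30.8 ± 1.09 FPKM in siMEF2A and 17.0 ± 3.90 FPKM in scrambled, 181% of the scrambled level and a log2 difference of 0.83. The value covers ENSMUST00000046186, 1 of 5 annotated transcripts and 1 of 2 coding ones (ENSMUSG00000037379, chromosome 5, 33198184 to 33218455, minus strand). Without scrambled replicate 1 the log2 difference was 0.61 and Spon2 was no longer called.

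Enpp2 was at 11.2 and 10.5 FPKM in siMEF2A, against 5.76 and 6.92 FPKM in scrambled. Again the 2 siMEF2A libraries were alike and scrambled replicate 2 was the nearer of the controls. The means were 10.8 ± 0.530 FPKM in siMEF2A and 6.34 ± 0.824 FPKM in scrambled, 171% of the scrambled level and a log2 difference of 0.69. Enpp2 was no longer called without siMEF2A replicate 1 (log2 difference 0.65) or without scrambled replicate 1 (0.58).

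Enpp2 (ENSMUSG00000022425, chromosome 15, 54838901 to 54952892, minus strand) had 3 of its 9 annotated transcripts listed, all coding. They differ by exon 12, of 156 bases (54877776 to 54877931), which 2 of them hold, and by the length of a later exon. Gm26684, a gene on the opposite strand, overlaps Enpp2 only outside these transcripts. ENSMUST00000041591, which lacks exon 12, was at 6.52 and 4.72 FPKM in siMEF2A, against 2.36 and 4.25 FPKM in scrambled. ENSMUST00000171545, which holds it, was at 3.55 and 4.97 FPKM in siMEF2A, against 2.80 and 1.93 FPKM in scrambled. Each was higher in both siMEF2A libraries, and their means were 170% and 180% of scrambled. Transcripts with exon 12 took 41.9% and 54.9% of the Enpp2 sum in siMEF2A, against 59.1% and 38.6% in scrambled, so the groups overlapped in this share and each pair of replicates was farther apart than the 2 group means.

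**Figure D2:**
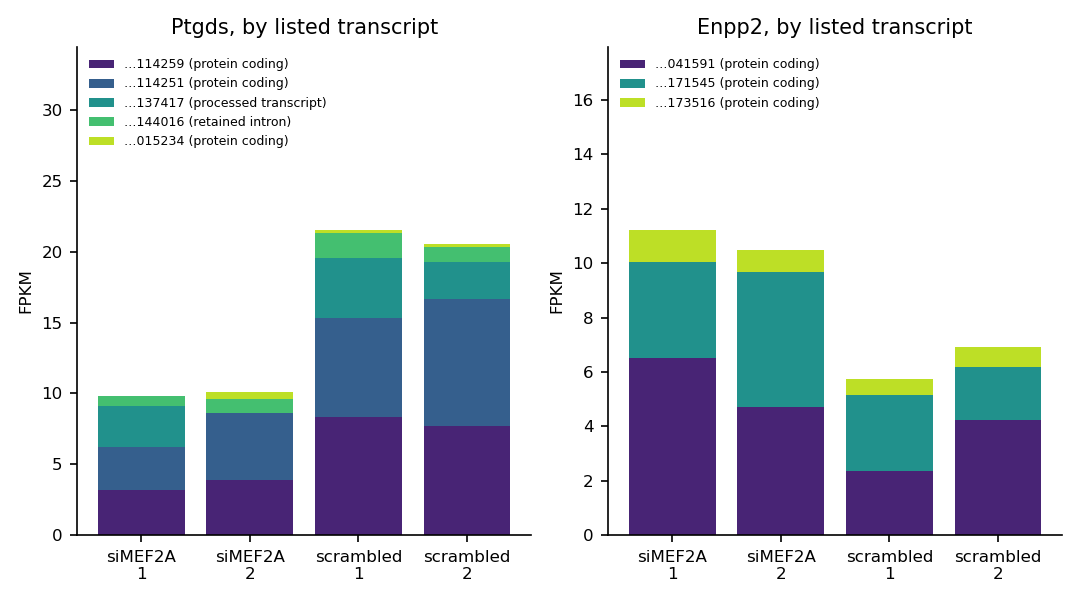
FPKM of Ptgds (left) and Enpp2 (right) in each library, stacked by listed transcript and named by the last digits of its Ensembl identifier. The Ptgds stack is lower in both siMEF2A libraries (9.81 and 10.1 FPKM) and the Enpp2 stack is higher (11.2 and 10.5 FPKM), while the shares of single transcripts vary between replicates.

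Added together, the 6 genes had about the same total in both groups while its makeup differed. That difference in makeup was fixed by the choice of genes that moved in opposite directions. The total likewise depends on which genes were picked. Their summed level was 79.8 and 76.3 FPKM in siMEF2A, against 74.0 and 84.7 FPKM in scrambled, so that the groups overlapped. Spon2 held 39.5% and 39.3% of the sum in siMEF2A, against 19.3% and 23.4% in scrambled. Ptgds held 12.3% and 13.2% in siMEF2A, against 29.1% and 24.3% in scrambled. In siMEF2A the order of mean levels was Spon2, Fgf21, Enpp2, Ptgds, Sod3 and Chi3l1, and in scrambled it was Fgf21, Ptgds, Spon2, Enpp2, Sod3 and Chi3l1. In scrambled, Sod3 and Chi3l1 differed by less than the SD of Sod3, and Ptgds and Spon2 by about the SD of Spon2.

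The 3 genes that were higher in siMEF2A were also all higher in scrambled replicate 2 than in scrambled replicate 1, by 0.42 for Sod3, 0.23 for Enpp2 and 0.44 for Spon2 on the log2(FPKM + 1) scale. The same step was -0.10 for Chi3l1, -0.06 for Ptgds and 0.19 for Fgf21. Between the siMEF2A libraries the widest step of the 6 was that of Fgf21, at -0.15 on this scale. The call of each of the 3 genes thus leans on scrambled replicate 1.

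Some chromosomal neighbours of Chi3l1 were at a lower level too. Of the 8 tested genes within 250 kb of Chi3l1, 4 were lower in siMEF2A (limma adjusted p under 0.05) and 0 higher, where 1.32% of all genes tested were called lower. This window was set after the values were seen. In windows of the same size, 0 of 21 tested genes around Ptgds, 0 of 18 around Fgf21, 0 of 6 around Spon2, 0 of 3 around Enpp2 and 0 of 2 around Sod3 were called. The genes that fell near Chi3l1 lie to its right on the chromosome, in a row that includes Myog, the gene of the myogenic factor myogenin.

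Mybph, the gene of a myosin-binding protein of the thick filament, starts 3266 bases past the end of Chi3l1 on the same strand. It was at 22.1 and 24.0 FPKM in siMEF2A, against 53.5 and 65.0 FPKM in scrambled (log2 difference -1.32, SE 0.16, limma adjusted p = 6.38e-07). Both siMEF2A libraries were well below both scrambled libraries, at 38.9% of the scrambled mean. Adora1, an adenosine receptor gene on the opposite strand, was at 2.01 and 2.28 FPKM in siMEF2A, against 5.90 and 5.43 FPKM in scrambled (log2 difference -1.08, SE 0.15, limma adjusted p = 7.89e-06). The ends of Mybph and Adora1 overlap on opposite strands, and no use of strand was stated, so reads from that stretch cannot be assigned to one of them with certainty. Myog fell to 63.2% of scrambled (limma adjusted p = 0.0284) and Ppfia4, a liprin gene, to 50.1% (0.0181). Neither of these calls held under every alternative. Myog lost its call under quantile normalization (limma adjusted p = 0.0925) and without a filter on low values (0.0509). It also lost it without siMEF2A replicate 1, siMEF2A replicate 2 or scrambled replicate 2. Ppfia4 lost its call under quantile normalization (limma adjusted p = 0.0676). It also lost it without siMEF2A replicate 1, scrambled replicate 1 or scrambled replicate 2. Leaving out a library leaves 1 in its group. The calls of Mybph and Adora1 held under each alternative in which they were tested. Btg2, 103055 bases to the left of Chi3l1 and so about as far from it as Ppfia4 (106601), was at 89.6% of scrambled. Farther out on the right, Tmem183a, Cyb5r1 and Adipor1 were at 90.0% to 98.7%. None of these genes to the left or farther right was called.

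**Figure D3:**
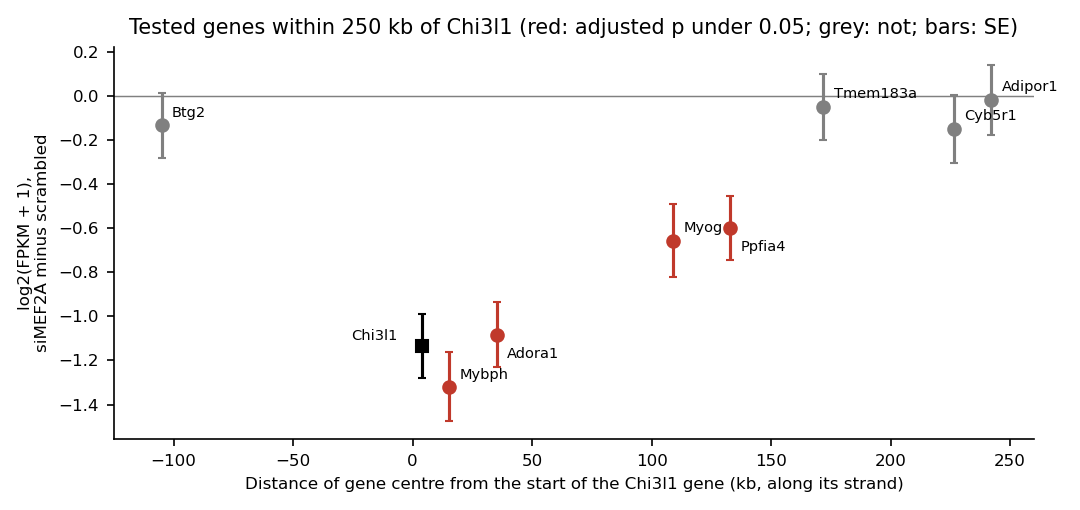
Difference in log2(FPKM + 1), siMEF2A minus scrambled, of Chi3l1 (black square) and the 8 tested genes within 250 kb, against the distance of each gene's centre from the start of Chi3l1. Bars are the SE of the fit; red genes had a limma adjusted p under 0.05. Mybph (-1.32) and Adora1 (-1.08) lie beside Chi3l1 (-1.14), and the 4 grey genes lie between -0.15 and -0.02.

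Across the whole table, the gene nearest in pattern to Chi3l1 was its chromosomal neighbour Adora1. Likeness was the Euclidean distance over the 4 libraries between values of log2(FPKM + 1), each centred on its gene's mean, and here the distance was 0.0886. Myl1, a myosin light chain gene of fast muscle, was next (0.0889), at 42.7% of scrambled. Ptgds was nearest to Ablim3, an actin-binding LIM protein gene (0.0858), and to Adora1 (0.10). The added 1 shrinks the differences of low genes, so nearness here does not mean an equal relative difference. Adora1 was at 37.9% of scrambled and Ablim3 at 27.4%, against 25.0% for Chi3l1 and 47.2% for Ptgds. Fgf21 was nearest to Igfbp2, another secreted protein, which binds insulin-like growth factors (0.0440), and to C230035I16Rik (0.0875). Sod3 and Spon2 shared their nearest gene, the aldehyde dehydrogenase gene Aldh3a1 (distances 0.0817 and 0.121). Aldh3a1 was at 47.0 and 48.1 FPKM in siMEF2A, against 24.3 and 31.2 FPKM in scrambled. The second nearest to Sod3 was Alcam, an adhesion molecule gene (0.118), and the second nearest to Spon2 was Sod3 itself (0.161). Enpp2 was nearest to Dkk2, which encodes a secreted Wnt modulator (0.115), and to Gmds, an enzyme gene of GDP-fucose synthesis (0.121).

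The genes that work with these 6 products were read as lists, and few passed the test. Over all 11823 genes tested the median log2 difference was 0.04, and 754 (6.38%) had an unadjusted p under 0.05. In the prostaglandin list 0 of 14 tested genes were called by limma, 1 had an unadjusted p under 0.05, and the median was 0.16. The cyclooxygenase gene Ptgs1, upstream of Ptgds, was at 84.7 FPKM in both siMEF2A libraries, against 71.7 and 81.8 FPKM in scrambled, and the inducible cyclooxygenase gene Ptgs2 was at 116% of scrambled (limma adjusted p = 1.0 for both). Ptgfr, the receptor gene for prostaglandin F, was at 144% (limma adjusted p = 0.224), and Ptgis, the prostacyclin synthase gene, at 79.0% (0.796). Pla2g4a, the phospholipase gene that frees arachidonic acid, was at 125% (0.832).

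Ptgds is a lipocalin, and its list held lipocalins together with intracellular lipid carriers. Of the 5 genes reported here 1 was lower by limma, 3 had an unadjusted p under 0.05, and the median of the 5 was -0.32. The one that fell is a carrier inside the cell and not secreted. Fabp3, the fatty acid-binding protein gene of heart and skeletal muscle, was at 1.43 and 1.14 FPKM in siMEF2A, against 3.94 and 4.78 FPKM in scrambled (log2 difference -1.23, SE 0.15, limma adjusted p = 1.09e-06). Fabp4 was at 50.7% of scrambled and missed the threshold (limma adjusted p = 0.0606), and Fabp5 was at 79.0% (0.693). Apod, a lipocalin like Ptgds, was at 86.4% of scrambled with overlapping groups and was not called.

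Among 21 superoxide and peroxide genes tested, 0 were called by limma, 2 had an unadjusted p under 0.05, and the median was 0.08. For the cytosolic and mitochondrial dismutases the groups overlapped. Sod1 was at 346 and 303 FPKM in siMEF2A, against 321 and 308 FPKM in scrambled, and Sod2 was at 102% of scrambled. The copper carriers that load the extracellular enzyme were at 125% for the transporter gene Atp7a and 87.0% for the chaperone gene Atox1 (limma adjusted p = 1.0 for both). The nearest to the threshold were Xdh, the xanthine dehydrogenase gene, at 156% (limma adjusted p = 0.0954), and Cat, the catalase gene, at 132% (0.455). Prdx4, a peroxiredoxin of the secretory pathway, was at 129% (0.828).

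For Enpp2, 0 of 15 genes of lysophosphatidic acid and sphingosine phosphate signalling were called, with 3 at an unadjusted p under 0.05 and a median of 0.04. The receptor gene Lpar1 was at 34.3 and 32.4 FPKM in siMEF2A, against 25.3 and 30.3 FPKM in scrambled, 120% of the scrambled level (limma adjusted p = 1.0). Lpar6 was at 102% with overlapping groups, and Lpar4, under the minimum level for a test, was at 0.707 and 0.742 FPKM in siMEF2A, against 0.736 and 0.844 FPKM in scrambled. S1pr1, a sphingosine phosphate receptor gene, was at 137% (limma adjusted p = 0.479), its relative S1pr2 at 127% (0.730), and Ppap2b, a phosphatase gene that degrades the lipid, at 129% (0.588). Of the 3 tested relatives of Enpp2, 0 were called and 1, Enpp1, had an unadjusted p under 0.05. Enpp1, an ectoenzyme gene that makes pyrophosphate, was at 137% (0.338), Enpp3 at 124% and Enpp4 at 99.1%, and the median was 0.16.

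In the spondin and thrombospondin list, which holds integrins that mindin is known to bind, 0 of 8 tested genes were called by limma, 2 had an unadjusted p under 0.05 and the median was 0.16. Itgb2, a leukocyte integrin gene, was at 148% (limma adjusted p = 0.264), Tlr4, the lipopolysaccharide receptor gene, at 128% (0.629), and Thbs1, the thrombospondin gene, at 114% (1.0). Spon1, a relative of Spon2, was not analysed here. Among 7 chitinase-like and related receptor genes 0 were called and 1 had an unadjusted p under 0.05, with a median of 0.07. Sdc1, the gene of the matrix receptor syndecan, was at 127% (limma adjusted p = 0.698), Chid1 at 109% and the galectin gene Lgals3 at 111%. Tmem219, which encodes a receptor subunit for the Chi3l1 product, was at 100.3% of scrambled, and its partner Il13ra2, under the minimum level, at 0.511 and 0.449 FPKM in siMEF2A, against 0.435 and 0.363 FPKM in scrambled.

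For Fgf21, 0 of 15 FGF signalling genes were called by limma, 2 had an unadjusted p under 0.05 and the median was 0.12. Fgfr1, its main receptor gene in this list, was at 66.5 and 73.2 FPKM in siMEF2A, against 59.4 and 66.2 FPKM in scrambled, 111% of the scrambled level (limma adjusted p = 1.0), and Klb was not analysed here. The log2 difference was above 0 for 14 of the 15 genes and below it for 1, Fgf11. Over all genes tested it was above 0 for 7553 and below it for 4270. Fgf7 was at 154% (limma adjusted p = 0.0559), Fgf10 at 139% (0.756) and Fgf11 at 78.5% (0.787). The integrated stress response is a pathway known to switch on Fgf21 through ATF4. Of its 25 tested genes 0 were called and 6 had an unadjusted p under 0.05. The median was 0.01, with 13 genes above and 12 below 0. Those 6 genes, Chac1, Trib3, Mthfd2, Atf3, Psph and Asns, were all lower in siMEF2A. Atf4 itself was at 169.5 and 169.7 FPKM in siMEF2A, against 173 and 174 FPKM in scrambled, and Ddit3 was at 109% (limma adjusted p = 1.0 for both). The smallest p belonged to Chac1 at 71.1% (0.254), Trib3 at 68.0% (0.329) and Mthfd2 at 75.3% (0.479), none of which passed.

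Among 35 tested genes of other proteins released by muscle, 1 was higher and 2 were lower by limma, with a median of 0.12. Of the 35, 8 (22.9%) had an unadjusted p under 0.05 in that fit, against 6.38% of all genes tested. Il33, an alarmin cytokine gene, was at 4.21 and 5.15 FPKM in siMEF2A, against 1.25 and 1.94 FPKM in scrambled (log2 difference 1.14, SE 0.16, limma adjusted p = 9.03e-06). Igf2, the growth factor gene, was at 5.40 and 7.80 FPKM in siMEF2A, against 12.8 and 14.4 FPKM in scrambled (log2 difference -0.96, SE 0.16, limma adjusted p = 0.000177). Fndc5, the precursor gene of irisin, was at 1.96 and 2.38 FPKM in siMEF2A, against 4.67 and 4.43 FPKM in scrambled (log2 difference -0.81, SE 0.15, limma adjusted p = 0.000695). Over all genes the shares called were 0.406% higher and 1.32% lower.

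**Figure D4:**
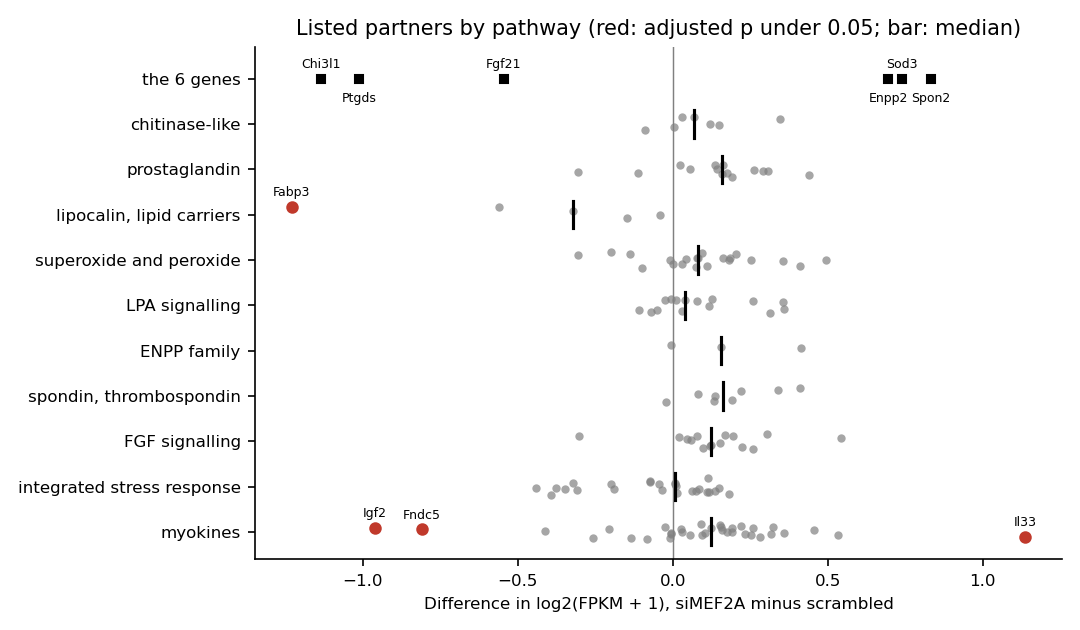
Difference in log2(FPKM + 1), siMEF2A minus scrambled, of the 6 genes (black squares, top row) and of the tested genes of each list (points; the vertical bar is the list's median). Red points had a limma adjusted p under 0.05; they are Fabp3 (-1.23) among lipid carriers and Igf2 (-0.96), Fndc5 (-0.81) and Il33 (1.14) among muscle-released factors.

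Several of the 6 products are also made by fat, bone or immune cells, so markers of other cell types were read in the same libraries. Of 8 adipocyte markers 4 were listed, including Fabp4 of the lipid carriers above. Their summed level was 8.95 and 9.75 FPKM in siMEF2A, against 8.49 and 9.21 FPKM in scrambled. Within that sum Fabp4 was at 50.7% of scrambled, while Cebpa was at 111%, Pparg at 129% and Plin4 at 143%. Of 8 osteoblast and chondrocyte markers 2 were listed, at 7.51 and 8.69 FPKM in siMEF2A, against 6.97 and 7.27 FPKM in scrambled. The macrophage markers Cd68 and Cd14, 2 of 7, summed to 19.0 and 18.5 FPKM in siMEF2A, against 15.4 and 17.8 FPKM in scrambled. Endothelial and neural markers (1 of 5 listed for each) stayed under 1 FPKM. No tested marker of these lists passed the limma test, and their part in the differences was not tested.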

How the data were processed

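RNA was measured in 4 C2C12 libraries made with an Illumina TruSeq RNA kit, per the labels' protocols. The authors deposited an FPKM value per Ensembl transcript, beside gene and locus, per the file headers. Build mm10 and the tools Cufflinks, TopHat, Bowtie, Trimmomatic and CASAVA are named in the submitters' processing notes. Their versions and settings, the annotation, any scaling and the rule for listing transcripts are not given in the sources used.

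FPKM were summed per symbol in Python 3.11.15. After 27 small RNA symbols were left out, 11823 genes averaging 1 FPKM or more were tested as log2(FPKM + 1), without rescaling, by limma 3.58.1 in R 4.3.3 (intensity trend, two-sided). P-values were adjusted over all genes by Benjamini and Hochberg's method, with a threshold of 0.05. A gene's test had 2 residual and 30.0 prior degrees of freedom, so its p rests mostly on the spread pooled over genes. The fit was also run on simulated data whose spread came from the fit itself, which is no check of the spread between these libraries. Log2 differences are siMEF2A minus scrambled, and a fold change on this scale understates changes of low genes. Transcript types and coordinates are those of GENCODE M21 (97.3% of transcripts matched). Relative depth was the commonest ratio, within 0.3%, between libraries among 600 low genes with 1 transcript. It was shared by 11 to 17 genes and assumes that FPKM held no further scaling. Absolute depth was unknown, so no counting interval was computed.

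The 6 genes, the lists and the tests were chosen with earlier results of these data known. Named genes were the 6, Mef2a, fixed partners of each product, the 2 genes nearest in pattern to each of the 6 and the 3 genes of each list with the smallest p. The neighbours of Chi3l1 were named after their values were seen. Alternatives were the pseudocount, the filter, 3 scalings, the moderation, leaving out each library and a replicate block. The result of 1 listed gene is not reported here, and its list is given without it.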

Additional observations from a re-analysis of the deposited data

How the results depend on the processing

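The sign of each of the 6 differences was the same under every alternative run. Since the groups of these chosen genes did not overlap, most alternatives could not have reversed it. Only the scalings and the use of the most abundant transcript alone could. Leaving out 1 library gave ranges of -1.18 to -1.09 for Chi3l1, -1.04 to -0.98 for Ptgds, -0.64 to -0.45 for Fgf21, 0.53 to 0.95 for Sod3, 0.58 to 0.81 for Enpp2 and 0.61 to 1.05 for Spon2. A pseudocount of 0.1 gave -1.85 for Chi3l1 and -1.08 for Ptgds. Ptgds, whose replicates were the closest, also moved by more than their SD under median-ratio (-1.06), upper-quartile (-1.05) and quantile (-1.06) scaling and with its most abundant transcript alone (-0.88).

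The 48 genes higher in siMEF2A became 29 with a pseudocount of 0.1, 29 without a filter on low values, 14 under median-ratio scaling, 14 under upper-quartile scaling, 11 under quantile normalization, 25 without an intensity trend and 73 with robust moderation. The 156 lower became 97 at a minimum mean of 5 FPKM, where fewer genes were tested, and the 3 scalings made 90.4% to 90.7% of calls lower, against 76.5%. Leaving out 1 library gave 41 to 74 higher and 133 to 157 lower. The cause of these moves was not tested otherwise.

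In the lists, a minimum mean of 5 FPKM left 0 of the lipid carriers reported here lower and, of muscle-released factors, 0 higher and 1 lower. Fabp3, Il33 and Fndc5, and near Chi3l1 also Adora1 and Ppfia4, averaged under that minimum and so were not tested there. Robust moderation gave 2 lipid carriers lower and called 1 superoxide and peroxide gene and 1 FGF gene higher. Leaving out 1 library gave 1 to 2 lipid carriers lower and 0 to 1 superoxide and peroxide genes higher. Near Chi3l1, 2 genes were lower at a minimum mean of 5 FPKM and 2 under quantile normalization, and 2 to 3 with 1 library left out.

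The labels share replicate numbers between groups without saying that they mark pairs, and same-numbered libraries deviated together with r = 0.291 across genes, which are not independent replicates. With the replicate block, 220 genes were higher and 288 lower, and Fgf21 was called lower. It gave 1 prostaglandin, 2 superoxide and peroxide, 1 ENPP, 1 spondin and thrombospondin, 1 FGF and 4 muscle-released genes higher, and 2 lipid carriers and 3 stress response genes lower.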
